A study of Mus musculus with 6 samples.

Results

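S100 proteins are small calcium-binding proteins of vertebrates, built from paired EF-hand motifs, and 7 of their genes were chosen for description in mouse dendritic cells (DC): S100a1, S100a4, S100a6, S100a8, S100a9, S100a10 and S100a11. The genes were selected on earlier results for the same arrays, in which signals of S100a4 and S100a9 in all groups had already been described. All values below are therefore a description and carry no test. Of the 7 genes, 6 were read, from 8 probe sets that the platform annotation gives to exactly 1 of these symbols. All 8 probe sets passed the filter on dim signals and were above it on all 6 arrays. The only S100a11 probe set is shared with 2 other symbols, so S100a11 was not read. In all, 12393 genes had a probe set with 1 symbol.

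The cells were grown from bone marrow of a 13-week-old female CAR-transgenic mouse, and every group carries that transgene. The sources used here do not name the promoter that drives it. Progenitors were expanded for 7 days, and 7 days with GM-CSF at 250 U/ml followed. The groups, with 1 Affymetrix MOE430A array each, were AdIkBa-SR+TNFa, AdIkBa-SR, AdOVA+TNFa, AdOVA, TNFa and untreated. AdIkBa-SR is an adenovirus that carries a super-repressor of the transcription factor NF-kB, and AdOVA is the control adenovirus. Virus was given at 1500 particles per cell for 2 h, followed by 18 h of culture. TNFa is an inflammatory cytokine and a strong activator of NF-kB, and it was then added at 50 ng/ml for 4 h. TNFa and untreated cells received no virus, and no mock transduction is recorded for them.

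Inside cells, S100 proteins bind calcium, change shape and then bind partner proteins such as annexins and myosins. S100a8 and S100a9 form the heterodimer calprotectin, which neutrophils and monocytes hold in large amounts and release as an alarm signal that is read by Toll-like receptor 4 and the receptor Ager (RAGE). S100a4 binds non-muscle myosin and is linked to cell motility, S100a6 is calcyclin, S100a10 is the partner of annexin A2, and S100a1 is best known from heart and skeletal muscle. Most S100 genes lie in a cluster, which in the mouse is on chromosome 3.

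S100a4 stood apart from the other 5 genes. Its signal was 5.89-fold lower on the AdOVA array than on the untreated array and 5.95-fold lower on the AdOVA+TNFa array than on the TNFa array, while on both AdIkBa-SR arrays it lay in the range of the arrays without virus. All 6 genes were lower with TNFa without virus, by 1.43-fold (S100a9) to 1.88-fold (S100a4). For the 5 genes other than S100a4, AdOVA over untreated was at most 2.60-fold lower (S100a1). On the AdIkBa-SR+TNFa array, all 6 genes were higher than on the AdOVA+TNFa array, by 1.98-fold to 9.63-fold. Ribosomal protein genes differed in the same direction in most of these pairs, and their values are given below beside the S100 values.

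The sequences before the transcription starts of S100a4, S100a8 and S100a9 are shown because S100a4 had the largest differences between arrays and because the products of S100a8 and S100a9 work as a pair. Each is the 250 bases before the RefSeq start in GRCm38.p6, read on the strand of the gene, at chr3:90603520-90603769 (plus strand) for S100a4, chr3:90668821-90669070 (plus strand) for S100a8 and chr3:90695722-90695971 (minus strand) for S100a9. Capitals mark matches to TATAAA (the TATA box) and to TTNNGNAA (a loose C/EBP motif) on either strand.
S100a4: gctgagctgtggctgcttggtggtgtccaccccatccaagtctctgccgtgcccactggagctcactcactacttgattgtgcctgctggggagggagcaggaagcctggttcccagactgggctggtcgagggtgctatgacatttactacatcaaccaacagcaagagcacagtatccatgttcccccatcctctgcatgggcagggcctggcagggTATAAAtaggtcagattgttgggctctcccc
S100a8: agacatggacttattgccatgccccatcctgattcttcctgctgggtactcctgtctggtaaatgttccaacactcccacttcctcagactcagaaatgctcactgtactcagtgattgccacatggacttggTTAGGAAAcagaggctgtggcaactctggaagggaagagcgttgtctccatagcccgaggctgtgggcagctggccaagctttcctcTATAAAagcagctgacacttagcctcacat
S100a9: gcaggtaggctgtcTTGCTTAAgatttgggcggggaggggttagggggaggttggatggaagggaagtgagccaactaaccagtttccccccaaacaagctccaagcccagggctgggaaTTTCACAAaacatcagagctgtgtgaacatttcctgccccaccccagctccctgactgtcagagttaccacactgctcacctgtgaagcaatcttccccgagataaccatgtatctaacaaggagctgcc

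TATAAA lies 31 to 26 bases before the start of S100a4 and 30 to 25 bases before that of S100a8. Of 32851 windows of this length in the RefSeq table, 12.4% hold TATAAA. TTNNGNAA is in the window of S100a8 at 117 to 110 bases and in that of S100a9 at 236 to 229 and 130 to 123 bases before the start, and 36.8% of all windows hold it. Windows were at hand for 6 of the 7 genes and not for S100a10. The 10-letter NF-kB consensus was in none of these 6 windows and in 7.25% of all windows, and TGANTCA (AP-1) was only in that of S100a11 among the 6, against 6.75% of all windows. A match or its lack in such a window says nothing about binding of the factor.

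S100a8 and S100a9 encode the subunits of calprotectin. The signal of S100a8 was 9756 on the AdIkBa-SR+TNFa array, 9113 with AdIkBa-SR, 4190 with AdOVA+TNFa, 6825 with AdOVA, 4824 with TNFa and 8278 untreated. Its lowest arrays were thus AdOVA+TNFa and TNFa, and the AdOVA array lay between these and the other 3. S100a9 had signals of 8866 with AdIkBa-SR+TNFa, 9746 with AdIkBa-SR, 2618 with AdOVA+TNFa, 7660 with AdOVA, 5714 with TNFa and 8197 untreated. AdOVA+TNFa was its lowest array and TNFa the next.

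With TNFa, S100a8 was 1.72-fold lower without virus (log2 -0.78) and 1.63-fold lower with AdOVA (log2 -0.70), and S100a9 was 1.43-fold and 2.93-fold lower (log2 -0.52 and -1.55). In AdIkBa-SR cells the TNFa differences were small for both genes, log2 0.10 for S100a8 and -0.14 for S100a9. Of all 14906 measured probe sets, 0.376% were lower than S100a9 for AdOVA+TNFa over AdOVA and 9.58% for TNFa over untreated. On the AdOVA array without TNFa, S100a8 was 1.21-fold and S100a9 1.07-fold lower than on the untreated array.

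**Figure D1:**
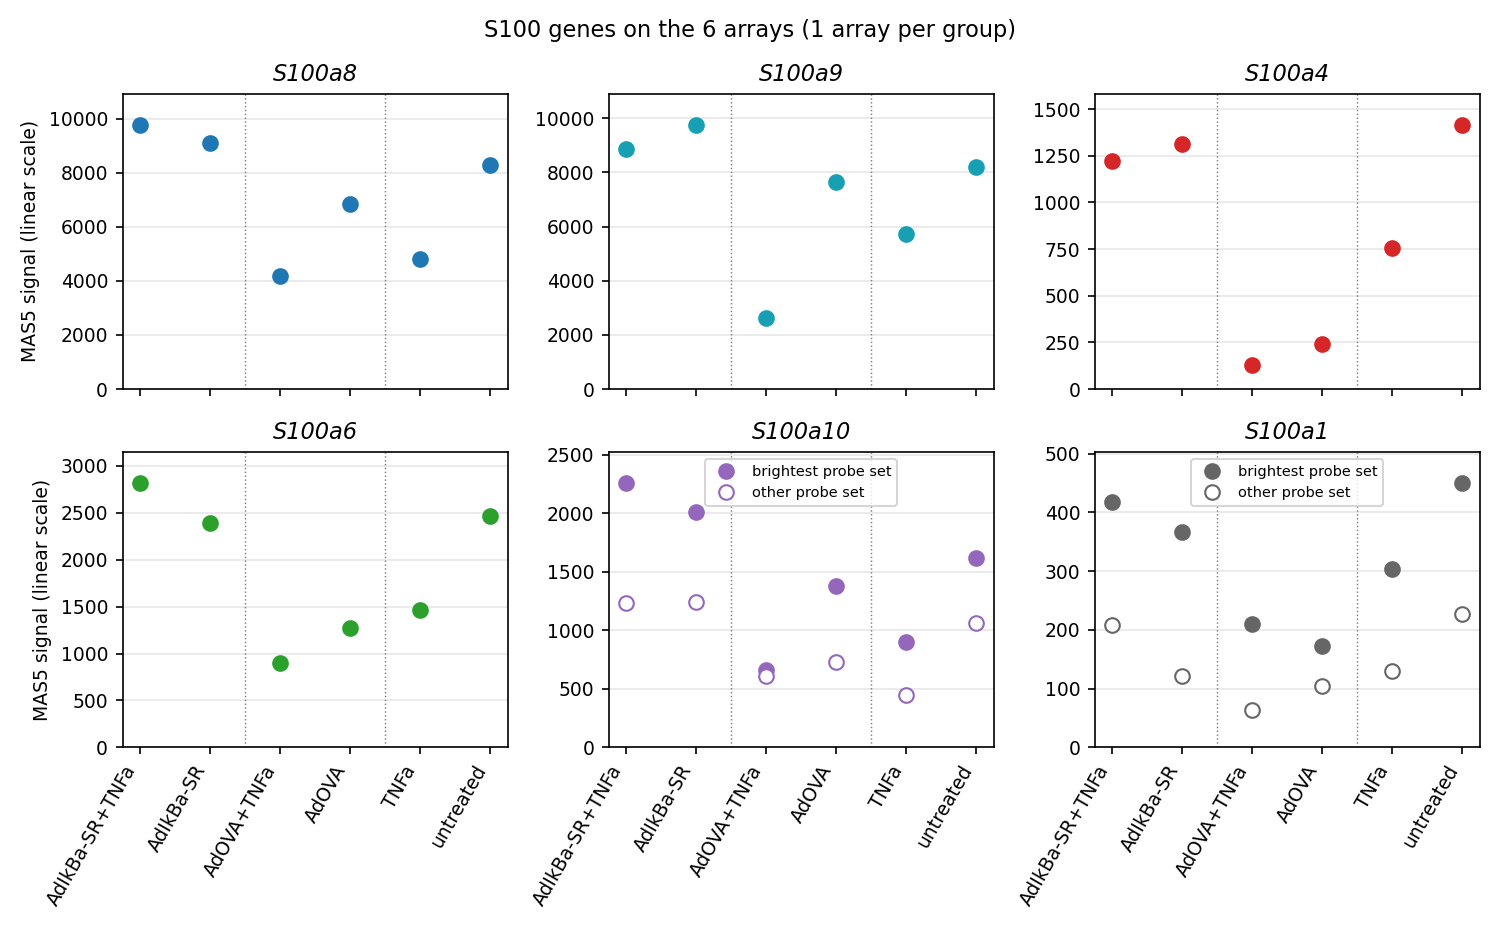
MAS5 signal (linear scale, y axis from 0) of each S100 gene on the 6 arrays, 1 point per array and probe set; filled points are the brightest probe set of the gene, open points the other. S100a4 has signals of 127 and 240 on the AdOVA+TNFa and AdOVA arrays and 753 or more on the other 4, and levels are not comparable between genes.

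S100a4, the motility-linked member, had the widest range, with its highest array 11.2-fold above its lowest. Its signals were 1219 with AdIkBa-SR+TNFa, 1315 with AdIkBa-SR, 127 with AdOVA+TNFa, 240 with AdOVA, 753 with TNFa and 1414 untreated. Both AdOVA arrays were thus below all other arrays. The difference was log2 -2.56 for AdOVA over untreated and -2.57 for AdOVA+TNFa over TNFa, pairs that share no array, and 0.0134% and 0.0268% of measured probe sets were lower. With AdIkBa-SR, S100a4 was 5.48-fold higher than with AdOVA (log2 2.45), and with TNFa added 9.63-fold higher (log2 3.27). AdIkBa-SR over untreated differed by only log2 -0.10. With TNFa it was 1.88-fold lower without virus and 1.90-fold lower with AdOVA (log2 -0.91 and -0.92), against log2 -0.11 in AdIkBa-SR cells.

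S100a6, calcyclin, had signals of 2813 with AdIkBa-SR+TNFa, 2392 with AdIkBa-SR, 904 with AdOVA+TNFa, 1268 with AdOVA, 1464 with TNFa and 2462 untreated. The AdIkBa-SR+TNFa, AdIkBa-SR and untreated arrays were high and the other 3 low. AdOVA over untreated was log2 -0.96, and AdOVA+TNFa over TNFa was log2 -0.70. TNFa over untreated was log2 -0.75, and AdIkBa-SR+TNFa over AdOVA+TNFa was log2 1.64.

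S100a10, which binds annexin A2 and links it to the membrane skeleton, was read by 2 probe sets. The brighter had signals of 2256 with AdIkBa-SR+TNFa, 2010 with AdIkBa-SR, 664 with AdOVA+TNFa, 1376 with AdOVA, 899 with TNFa and 1623 untreated. The other had 1236, 1244, 612, 729, 449 and 1062 on the same arrays. On both, the AdIkBa-SR arrays were the highest and the TNFa and AdOVA+TNFa arrays the lowest. The order of the 2 lowest differed: AdOVA+TNFa over TNFa was log2 -0.44 on the brighter probe set and 0.45 on the other. TNFa over untreated was log2 -0.85 on the brighter and -1.24 on the other.

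S100a1, a calcium sensor best known from muscle, was also read by 2 probe sets. The brighter probe set had signals of 417 with AdIkBa-SR+TNFa, 367 with AdIkBa-SR, 211 with AdOVA+TNFa, 173 with AdOVA, 303 with TNFa and 449 untreated, and the other had 208, 122, 64.5, 104, 131 and 227. Both AdOVA arrays were the lowest on each probe set. AdOVA over untreated was log2 -1.38 on the brighter and -1.13 on the other. For AdOVA+TNFa over AdOVA the probe sets disagreed in sign, with log2 0.29 and -0.69. Over the 9 pairs of arrays compared, the gap between the probe sets of a gene had a median of 0.59 and a largest value of 0.97 log2 units for S100a1, and 0.30 and 0.89 for S100a10. With 1 array per group, there is no repeat measurement of a group. The gap compares 2 probe sets on the same arrays, so it leaves out the spread between cultures and between arrays. Differences of its size cannot be told from it, and larger ones may still lie within the spread that was not measured.

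The comparison of AdOVA with no virus asks which genes differ with the control virus. S100a4 was the only gene of the 6 that was at least 2-fold lower in both pairs, as were 2 of the 8 probe sets (S100a4 and the dimmer one of S100a1), and 1.37% of all measured probe sets were. None was at least 2-fold higher in both, where 1.91% of all measured probe sets were. In single pairs, S100a1 and S100a4 (3 of 8 probe sets) were at least 2-fold lower for AdOVA over untreated, where 4.46% of all were, and S100a4 and S100a9 (3 of 8 probe sets) for AdOVA+TNFa over TNFa, where 4.95% were. The median log2 difference of the 6 genes was -0.62 and -0.61 in these pairs, against 0.01 and 0.07 over all measured probe sets.

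For ribosomal protein genes, of which 40 were measured, the medians in the same pairs were -0.37 and -0.78. The log2 difference of S100a4 minus those medians was -2.19 and -1.79. It was -1.01 and 0.26 for S100a1, and -0.59 and 0.09 for S100a6, so these genes too lay below the ribosomal median for AdOVA over untreated. It was 0.09 and 0.58 for S100a8, 0.13 and 0.35 for S100a10, and 0.27 and -0.34 for S100a9. The ribosomal protein genes were chosen for this comparison after their values were seen, and their part in the S100 differences was not tested. Virus cannot be told apart here from the transduction procedure. AdOVA over untreated lies within 1 hybridization round and the other pair spans both rounds. The AdOVA+TNFa array of that other pair also read highest on the control probe sets for 18S ribosomal RNA, and the part of this was not tested. Without the AdOVA+TNFa array, 2 genes (S100a1 and S100a4) were at least 2-fold lower.

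**Figure D2:**
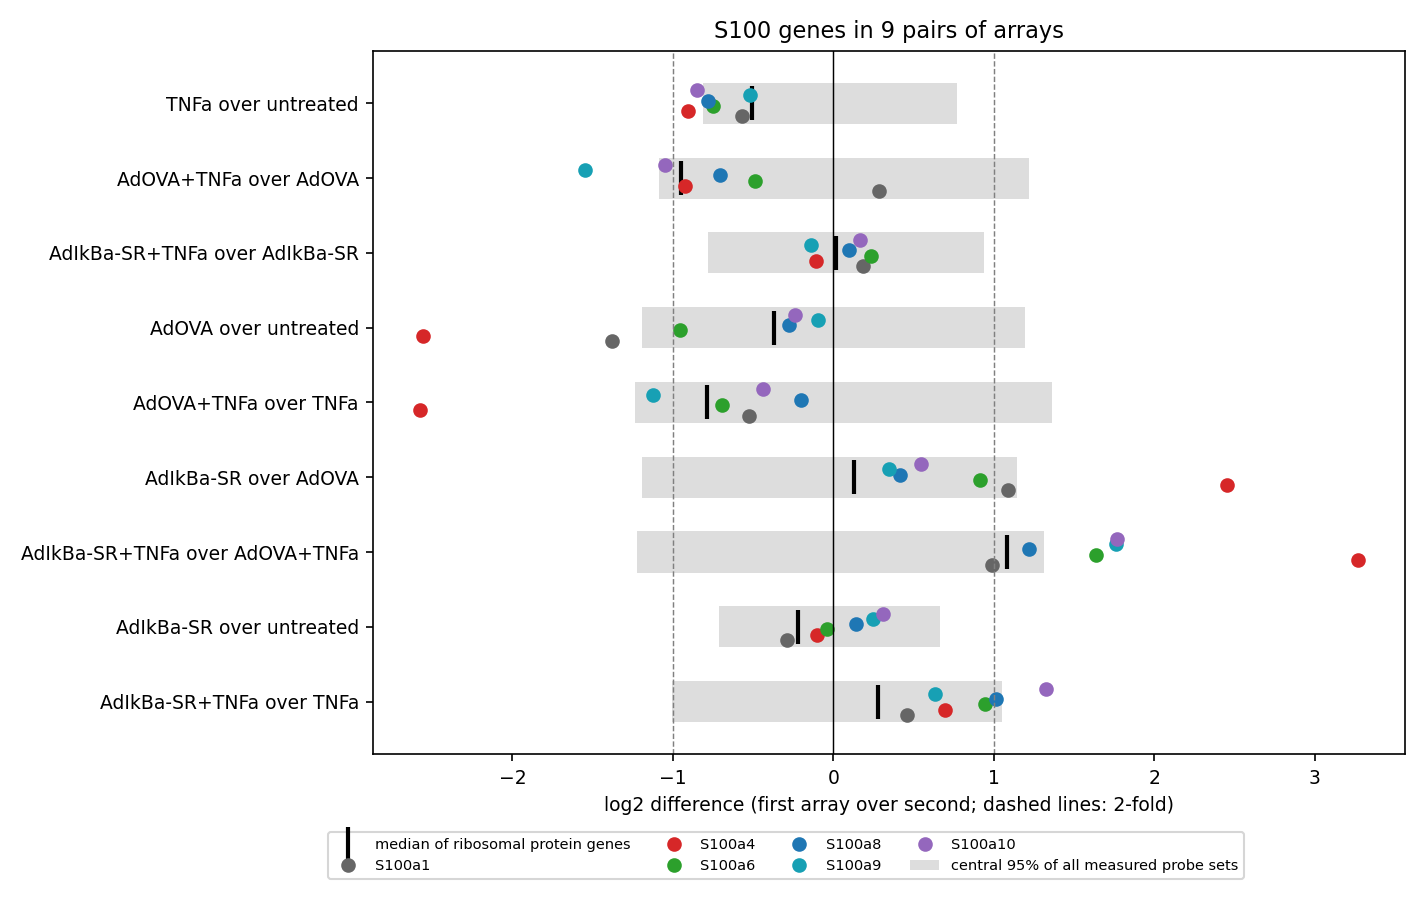
Log2 difference (x axis) of the 6 S100 genes in 9 pairs of arrays, each gene as a coloured point from its brightest probe set. Grey bars span the central 95% of 14906 measured probe sets and black ticks give the median of 40 ribosomal protein genes; S100a4 lies outside the bar in all 4 pairs of AdOVA with no virus or of AdIkBa-SR with AdOVA.

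The comparison of TNFa with no TNFa asks which genes differ with the cytokine. Without virus, all 6 genes were lower with TNFa, by log2 -0.52 for S100a9 to -0.91 for S100a4, with a median of -0.76. Of all measured probe sets, 45.5% were lower at all and 95% lay between -0.81 and 0.77. No gene passed 2-fold on its brightest probe set, 1 of 8 probe sets did (the dimmer one of S100a10), and 1.05% of all measured probe sets did. With AdOVA, 5 of the 6 genes were lower with TNFa, with a median of -0.81, and S100a9 and S100a10 were at least 2-fold lower (2 of 8 probe sets, against 3.32% of all). None of the 6 genes was at least 2-fold lower in both pairs, where 0.168% of all measured probe sets were, and none was higher, where 0.134% were. TNFa over untreated lies within 1 hybridization round, and AdOVA+TNFa over AdOVA spans both. TNFa cannot be told apart from the hybridization round in the AdOVA pair.

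The ribosomal protein genes had a median of -0.50 for TNFa over untreated and -0.95 for AdOVA+TNFa over AdOVA. The S100 values minus the first of these medians ran from -0.40 (S100a4) to -0.02 (S100a9) log2 units. For the AdOVA pair they ran from -0.60 (S100a9) to 1.23 (S100a1). The AdOVA+TNFa array also read 2601 on the control probe set for the 5' end of 18S ribosomal RNA, against 120 to 537 on the other 5 arrays. The 3'/5' signal ratio was 0.742 to 0.880 for Gapdh and 1.09 to 1.84 for actin over the 6 arrays, and for both controls it was highest with AdOVA. The part of these array differences in the S100 values was not tested.

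In AdIkBa-SR cells, log2 differences with TNFa on the brightest probe sets ran from -0.14 for S100a9 to 0.23 for S100a6, with a median of 0.13. The other probe set of S100a1 was higher with TNFa, by log2 0.77. None was at least 2-fold lower, where 0.832% of all measured probe sets were, or higher, where 2.03% were. The median of ribosomal protein genes was 0.02 in this pair. Per gene, the TNFa difference in AdIkBa-SR cells exceeded that without virus by 0.38 (S100a9) to 1.02 (S100a10) log2 units. On the brightest probe sets it exceeded that with AdOVA by 0.72 to 1.41 for 5 genes, and for S100a1 this difference was -0.10. The other probe set of S100a1 departed from this, with TNFa differences of log2 0.77 in AdIkBa-SR cells and -0.69 with AdOVA. These differences between responses were not tested. The wash protocol of the AdIkBa-SR array (0 recorded cycles in washes A and B) was not that of the other 5 arrays (10 and 4 cycles), which cannot be told apart from TNFa in this pair.

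**Figure D3:**
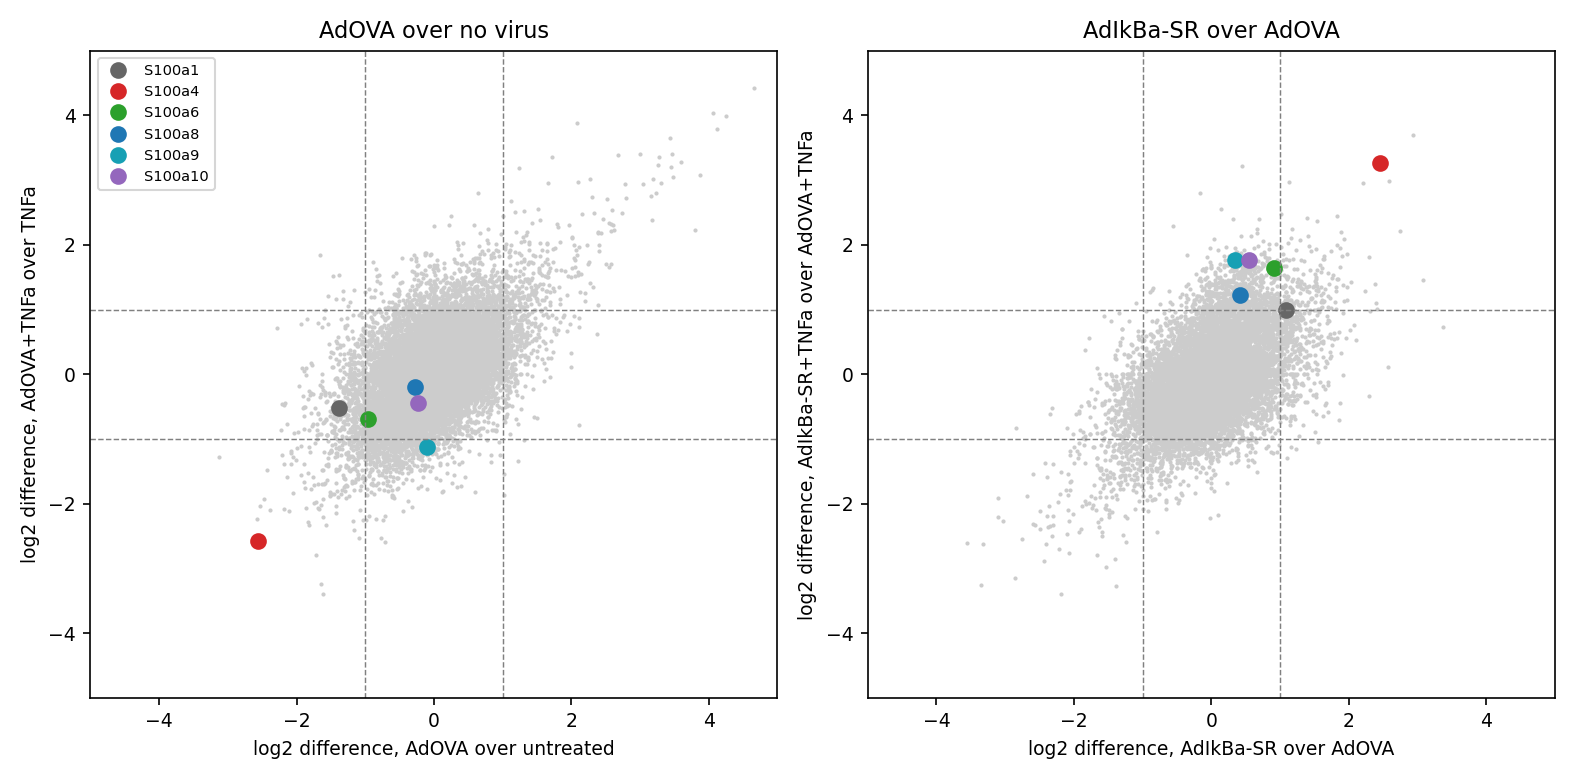
Log2 differences in separate pairs of arrays (x axis without TNFa, y axis with TNFa) for AdOVA over no virus (left) and AdIkBa-SR over AdOVA (right); grey points are the 14906 measured probe sets, coloured points the S100 genes and dashed lines mark 2-fold. S100a4 lies at -2.56 and -2.57 on the left and at 2.45 and 3.27 on the right, while the other 5 genes are past 2-fold in at most 1 pair on each side.

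The comparison of AdIkBa-SR with AdOVA asks what differs with the super-repressor beyond the virus. All 6 genes were higher with AdIkBa-SR in both pairs. On the brightest probe sets, the smallest differences were log2 0.35 for S100a9 without TNFa and 0.99 for S100a1 with it. The medians were 0.73 and 1.70, against -0.03 and -0.12 over all measured probe sets. In both pairs S100a4 was at least 2-fold higher (1 of 8 probe sets), as were 1.13% of all measured probe sets, and none was at least 2-fold lower, where 1.65% were. Without TNFa, S100a1 and S100a4 passed 2-fold (2 of 8 probe sets, against 3.82% of all). With TNFa, S100a4, S100a6, S100a8, S100a9 and S100a10 did (7 of 8 probe sets, against 5.41%). The brighter and the other probe set of S100a1 gave log2 1.09 and 0.23 without TNFa, and 0.99 and 1.69 with it. Those of S100a10 gave log2 1.76 and 1.01 with TNFa. The ribosomal protein genes had medians of 0.13 and 1.08 in these pairs, and S100a4 lay 2.33 and 2.18 log2 units above them. With TNFa, the values of the other 5 genes on their brightest probe sets minus that median ran from -0.10 (S100a1) to 0.68 (S100a9 and S100a10). The counts in both pairs moved with scaling: with equal array medians 3 genes were at least 2-fold higher, and with quantile normalization 2 were. Equal medians move the median of all probe sets for AdIkBa-SR+TNFa over AdOVA+TNFa to 0.06. Without the AdIkBa-SR array 5 genes were at least 2-fold higher, and without the AdOVA+TNFa array 2 were. AdIkBa-SR+TNFa over AdOVA+TNFa lies within 1 hybridization round. Its reference array, AdOVA+TNFa, read 2601 on the 18S 5' control probe set, against 120 to 537 on the other 5 arrays. The part of that array difference in this pair was not tested. AdIkBa-SR over AdOVA spans both rounds. The AdIkBa-SR array also had another wash protocol than the AdOVA array and a first stain of 420 s against 600 s. Neither round nor protocol can be told apart from the super-repressor in that pair.

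Without TNFa, log2 differences for AdIkBa-SR over untreated ran from -0.29 for S100a1 to 0.31 for S100a10 on the brightest probe sets, with a median of 0.05. The other probe set of S100a1 was log2 -0.90 in this pair. With TNFa, all 6 genes were higher for AdIkBa-SR+TNFa over TNFa, by log2 0.46 to 1.33, and S100a8 and S100a10 passed 2-fold (3 of 8 probe sets, against 3.10% of all). No gene was at least 2-fold higher in both pairs, where 0.134% of all measured probe sets were, or lower, where 0.0403% were. Both pairs set an array of hybridization round 2 against an array of round 1. Round can therefore not be told apart from virus and super-repressor in this comparison. Without the AdIkBa-SR array, whose washes differed, 2 genes (S100a8 and S100a10) were at least 2-fold higher. The comparisons with AdOVA, with untreated cells and of TNFa reuse the same 6 arrays, so their values are not independent of each other.

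The 3 genes whose pattern over the 6 arrays was most like that of a member were found by Pearson's r of log2 signals, as a description over 6 arrays. For S100a4 these were the fatty-acid-binding protein gene Fabp5 (r = 0.992), Nhp2 and the mRNA export factor gene Alyref. Fabp5 had signals of 6838 with AdIkBa-SR+TNFa, 7350 with AdIkBa-SR, 1329 with AdOVA+TNFa, 2523 with AdOVA, 4958 with TNFa and 6610 untreated. Its low AdOVA arrays follow from its choice by likeness to S100a4. For S100a8 they were Psenen, a gamma-secretase subunit gene, S100a10 and Ssna1, and for S100a10 they were S100a8 (r = 0.994), Cib1, which encodes a calcium- and integrin-binding protein, and Ifitm1. For S100a9 they were Ssr4, the leukocyte surface glycoprotein gene Cd52 and the complex I gene Ndufb6. For S100a6 they were the complex I gene Ndufb10, the phosphatase gene Dusp3 and Dad1, and for S100a1 Tuba4a, Mrpl23 and Rab24. These r values ran from 0.980 to 0.998. Of the genes compared, 2.56% (of 4796 for S100a8) to 12.6% (of 190 for S100a4) had r above 0.9 with a member, so a high r over 6 arrays was not rare. Among the 6 members, the 15 pairwise r values ran from 0.541 (S100a1 and S100a9) to 0.994 (S100a8 and S100a10).

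Of 11 other S100 genes listed, 7 had a probe set with 1 symbol and 4 were measured. S100a13 had signals of 470 with AdIkBa-SR+TNFa, 378 with AdIkBa-SR, 142 with AdOVA+TNFa, 382 with AdOVA, 321 with TNFa and 465 untreated, again lowest with AdOVA+TNFa. S100a16 had 60.8, 113, 256, 179, 71.2 and 185 on the same arrays and was highest there. S100a5 lay between 49.7 and 76.7 on all arrays, near the dim-signal limit of 53.5. None of the 4 was at least 2-fold apart in both pairs for AdOVA, TNFa or AdIkBa-SR.

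Of 14 listed binding partners and receptors of S100 proteins, 13 were read and 12 measured. The receptor gene Ager was under the dim-signal limit on every array. Tlr4, the gene of Toll-like receptor 4, was measured, with signals from 682 with AdOVA+TNFa to 1205 with TNFa. The annexin A2 gene Anxa2, partner of S100a10, had signals of 6295 with AdIkBa-SR+TNFa, 6001 with AdIkBa-SR, 5919 with AdOVA+TNFa, 7849 with AdOVA, 4577 with TNFa and 4575 untreated. It was therefore low without virus, with or without TNFa, while S100a10 was low with TNFa and with AdOVA+TNFa. The annexin gene Anxa1 had 4213, 5887, 2294, 3699, 4882 and 4871 on the same arrays, and Emb, a further gene of the list, had 3273, 3794, 1788, 2593, 3976 and 4065. Both were lowest with AdOVA+TNFa. For AdOVA over no virus, Plat, the tissue plasminogen activator gene, was at least 2-fold higher in both pairs and none of the 12 was lower. Plat had 45.4 with AdIkBa-SR+TNFa, 54.4 with AdIkBa-SR, 184 with AdOVA+TNFa, 119 with AdOVA, 65.3 with TNFa and 54.8 untreated. All its signals outside the AdOVA arrays were thus under or near the dim-signal limit of 53.5, and its differences were taken against such values. For AdIkBa-SR over AdOVA, Cd36, a fatty-acid and scavenger receptor gene, was at least 2-fold higher in both pairs, and Plat was lower. Cd36 had 1136 with AdIkBa-SR+TNFa against 314 with AdOVA+TNFa, and 1514 with AdIkBa-SR against 386 with AdOVA. The basigin gene Bsg was 2510 with AdIkBa-SR+TNFa and 1241 with AdIkBa-SR, the only 1 of the 12 past 2-fold with TNFa in these cells.

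Of 15 listed other EF-hand genes, 11 were read and 10 measured. Only the centrin gene Cetn3 was lower with AdOVA in both pairs by 2-fold or more, and it was at least 2-fold higher with AdIkBa-SR than with AdOVA in both. Its signals were 237 with AdIkBa-SR+TNFa, 301 with AdIkBa-SR, 109 with AdOVA+TNFa, 113 with AdOVA, 247 with TNFa and 321 untreated. The brightest members of the list, the actin bundler gene Lcp1, the calpain small subunit gene Capns1 and Efhd2, were highest on an array with both virus and TNFa: Lcp1 at 5212 with AdOVA+TNFa, Capns1 at 3034 and Efhd2 at 2680 with AdIkBa-SR+TNFa. The list's median log2 difference was -0.19 and -0.38 for AdOVA over no virus, and 0.32 and 0.54 for AdIkBa-SR over AdOVA.

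**Figure D4:**
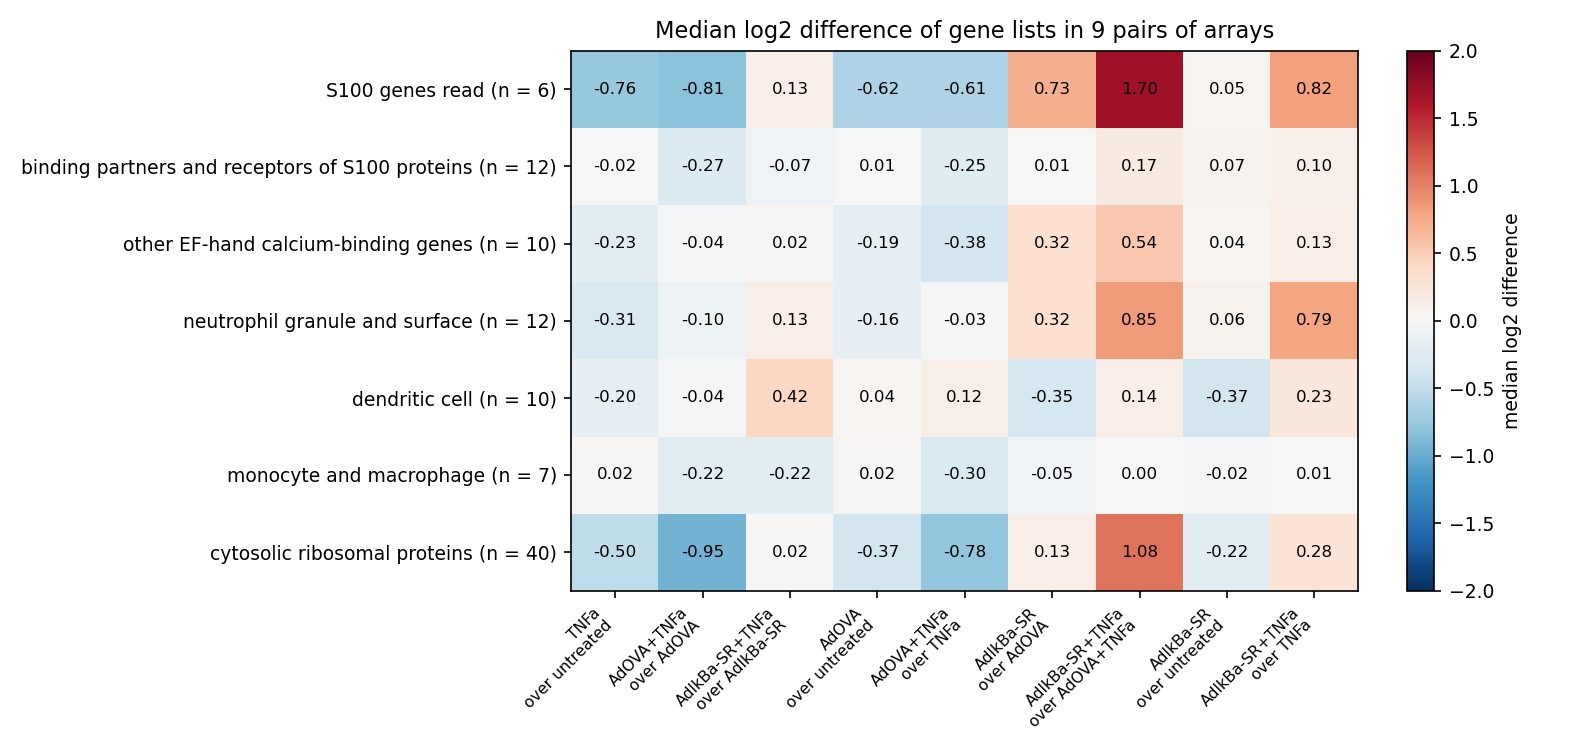
Median log2 difference of the 6 S100 genes and of 6 gene lists (rows) in 9 pairs of arrays (columns), printed in each cell and coloured from -2 to 2. The S100 row reads -0.76 in the first column (TNFa over untreated) and 1.70 in its darkest red cell (AdIkBa-SR+TNFa over AdOVA+TNFa), and the ribosomal protein row reads -0.50 and 1.08.

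S100a8 and S100a9 are also abundant in neutrophils, and in bulk RNA fewer cells of a type and less RNA per cell cannot be told apart. Of 13 listed neutrophil genes, 12 were read and measured, and none was under the dim-signal limit on all arrays. Their summed signal was 25623 with AdIkBa-SR+TNFa, 21888 with AdIkBa-SR, 17381 with AdOVA+TNFa, 18001 with AdOVA, 18200 with TNFa and 20817 untreated. Most of this sum came from Lcn2 and Mmp8, at 7484 and 8940 untreated and 8269 and 5218 with AdOVA+TNFa. The list's median log2 difference was -0.31 for TNFa over untreated, -0.10 for AdOVA+TNFa over AdOVA. Between AdIkBa-SR+TNFa and AdOVA+TNFa it was 0.85. At least 2-fold in both pairs, the elastase gene Elane was lower with TNFa, and Prtn3 and the lactoferrin gene Ltf were higher with AdIkBa-SR than with AdOVA. Elane read 32.3 with TNFa and 29.7 with AdOVA+TNFa, under the dim-signal limit of 53.5, so its differences were taken against that limit. The part of neutrophil RNA in the S100a8 and S100a9 values was not tested. Of the 11 DC markers 10 were measured, with a summed signal of 5167 to 7362, and Flt3 was not. All 7 monocyte and macrophage markers read were measured, with a summed signal of 33834 to 42110, so markers of that lineage were present beside those of DC. The Fc receptor gene Fcgr1 was the only monocyte and macrophage marker past 2-fold in both pairs of a comparison. It was higher with AdOVA than without virus (log2 1.05 and, with TNFa, 1.07) and higher with AdIkBa-SR than without virus (log2 1.09 and 1.31). Among DC markers, the integrin gene Itgax had 847 and 664 with AdIkBa-SR (with and without TNFa), 329 and 247 with AdOVA, and 755 and 699 without virus, low on the same arrays as S100a4. The chemokine receptor gene Ccr7 was highest on these 2 arrays, at 516 and 402 with AdOVA, against 200.3 and 101 with AdIkBa-SR. Of the 6 mast cell, 1 T cell, 2 B cell, 3 NK cell, 2 fibroblast and 4 erythroid or platelet markers measured, only Ppbp was at least 2-fold apart in both pairs of a comparison. It was lower with AdOVA and higher with AdIkBa-SR than with AdOVA.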

How the data were processed

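Total RNA (8 ug per sample) was measured on 6 Affymetrix arrays, 1 per group, with groups taken from the sample titles. Each deposited value is the intensity of a probe set, a linear MAS5 signal, per the submitters' processing notes. The sources used here give no MAS5 version. The 2% trimmed mean of all probe sets was about 200.1 on every array, so no rescaling was made. Fluidics settings came from the deposited array headers, and the 2 recorded hybridization dates are called hybridization rounds. Round 1 holds the untreated, TNFa and AdOVA arrays.

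Of 22690 probe sets, 64 are controls. Among the others, 20380 have 1 gene symbol in the platform annotation, 691 several and 1555 none. A floor of 53.5, at percentile 40 of non-control signals, replaced lower signals before log2. A probe set was measured when above the floor on at least 2 arrays (14906 were), and the brightest probe set stood for its gene. Differences are log2 of the first-named array over the second, and counts use a 2-fold limit. Pairs named together as "both pairs" share no array.

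There are no replicates, the number of arrays limits the precision, and no p-value is given. The members and gene lists were chosen with earlier results of these data known. Named genes are the members, the brightest 3 and those past 2-fold in both pairs among the other S100, partner and EF-hand lists, and the 3 most like patterns, among genes with at least 0.5 times the member's SD. Marker genes past 2-fold in both pairs, the 2 brightest neutrophil genes and the receptor gene Tlr4 were named after their values were seen. The counting step was run on simulated arrays with large changes and little noise, which checks the code and not the precision of the counts. Python 3.11.15, numpy 2.4.6 and pandas 2.3.3 were used. Scaling, floor, probe-set choice, fold limit, hybridization round and left-out arrays were varied.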

Additional observations from a re-analysis of the deposited data

How the results depend on the processing

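No paired analysis was possible because each group has 1 array and the labels give no replicate numbers. For AdOVA over no virus, the count of genes at least 2-fold lower was 1 with all probe sets, and it was 2 with a 1.5-fold limit, 2 without probe sets whose ID carries _s, _x or _a (4 genes left), 2 within hybridization round 1 and 2 without the AdOVA+TNFa array, the last chosen after seeing the data. For TNFa over no TNFa, the count lower was 0, and 3 at 1.5-fold. For AdIkBa-SR over AdOVA, the count higher was 1, and it was 3 with equal medians, 2 with quantile normalization, 3 at 1.5-fold, 5 within round 2, 2 without the AdOVA+TNFa array and 5 without the AdIkBa-SR array. For AdIkBa-SR over no virus, the count higher was 0, and 2 without the AdIkBa-SR array. Within a round, or without an array, 1 pair is read in place of 2, so the count can only stay or grow. No pair of AdIkBa-SR with no virus lies within 1 round. All other counts held. Floor settings could change none, because the brightest probe sets of the genes lay above each floor used. Over 7 settings, 360 log2 differences of single genes kept their sign except 4: S100a1 for AdOVA+TNFa over AdOVA (-0.20 averaged over its probe sets, -0.69 without the suffixed ones), S100a10 for AdOVA+TNFa over TNFa (0.01 averaged) and S100a6 for AdIkBa-SR over untreated (0.02 with equal medians). Many of the 360 values could not change, so this count overstates how far they were varied. Floor settings could change none of them, and averaging over probe sets could change only S100a1 and S100a10. Among the 4 genes left without suffixed probe sets, only S100a1 could change. No difference of 2-fold or more changed sign. The cause was not tested.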
